A study of Homo sapiens with 6 samples.

Results

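FKBP10 and 9 other genes that fold, hydroxylate or cross-link collagen were followed in 2 human breast cancer lines. The genes were the collagen chaperones FKBP10 and SERPINH1, the lysyl hydroxylases PLOD1, PLOD2 and PLOD3, the prolyl 4-hydroxylase alpha subunits P4HA1, P4HA2 and P4HA3, and the lysyl oxidases LOX and LOXL2. They were picked by symbol, and all 10 were among the 17039 genes of the deposited expression matrix. MDA-MB-231 is a human triple-negative breast cancer line, and the other line is its brain-seeking variant, called the brain-seeking line here and given by its own name in the keys of the plots. Poly(A) RNA from 3 libraries of each line was sequenced, and expression was given as FPKM (fragments mapped per kilobase of transcript, scaled to the library's mapped total). Both lines were grown in DMEM with serum and penicillin-streptomycin, and the medium of the brain-seeking line also held the antibiotic G418, so the line and the G418 cannot be told apart. Grouping followed the sample titles, since the cell line field of the record gives replicates 2 and 3 of each line another number in the line's name than replicate 1. The labels carry no age, batch or date, and do not say that the replicates came from separate cultures, so p-values measure the spread between these libraries, which may be technical.

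Collagen chains are modified in the endoplasmic reticulum (ER) before they leave the cell. Prolyl 4-hydroxylases hydroxylate proline, which stabilises the triple helix, and lysyl hydroxylases hydroxylate lysine, which sets where sugars and cross-links can be placed. FKBP10 (also called FKBP65) is a peptidyl-prolyl isomerase and chaperone needed for the work of PLOD2 on the ends of type I collagen, and SERPINH1 (HSP47) binds the folded triple helix. Outside the cell, lysyl oxidases turn lysine and hydroxylysine into aldehydes from which cross-links form. Loss of FKBP10, SERPINH1 or PLOD2 is known to cause brittle bone disease.

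The libraries of a line were close to each other, with a Pearson correlation of log2 values over 11124 genes of at least 0.997 within a line and at most 0.902 between the lines. The files used give no read counts, so sequencing depth cannot be stated per library. Summed FPKM ran from 465020 to 472007 in the brain-seeking line and from 486937 to 496420 in MDA-MB-231. Genes expressed by basal-type MDA-MB-231 cells (VIM, CD44, EGFR, AXL and CAV1) summed to 3377 to 3418 FPKM in the brain-seeking line and to 3002 to 3054 in MDA-MB-231. VIM made up most of each sum, with a mean of 2553 against 2306 FPKM. VIM, EGFR (91.2 against 33.3) and CAV1 (342 against 160) were called higher in the brain-seeking line. CD44 (181 against 251) and AXL (234 against 284) were called lower. Of 6 luminal, receptor and epithelial genes, PGR and CDH1 were at or under 0.07 FPKM in every library, and the 6 together summed to 20.4 to 21.2 FPKM in the brain-seeking line and 10.8 to 11.6 in MDA-MB-231. Most of that sum was ERBB2 (HER2), with a mean of 9.88 against 4.95 FPKM, and EPCAM, with 8.70 against 5.06, and both were called higher in the brain-seeking line, as was GATA3 (1.24 against 0.433 FPKM), while ESR1 (0.927 against 0.790) did not pass. The part of these differences in the results below was not tested. The fibroblast list (DCN, LUM, PDGFRA, PDGFRB, FAP, THY1 and POSTN, of which 6 were in the matrix) summed to 0.3 to 0.31 FPKM in the brain-seeking line and 0.04 to 0.08 in MDA-MB-231. PDGFRA made up nearly all of the former, at 0.26, 0.25 and 0.24 FPKM against 0, 0 and 0. It reached the mean of 0.1 FPKM needed for testing only through the brain-seeking line. Its log2 fold change of 1.81 depends on the 0.1 added to each value, so nothing is read from its call as higher. LUM, PDGFRB, FAP, THY1 and POSTN were each at or under 0.06 FPKM in every library and were not tested.

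The oligonucleotides with which the study measured and silenced FKBP10 show which part of the gene its own assays read. FKBP10 lies on the plus strand at chr17:41812680-41823217 (GRCh38). On an annotated transcript of 2662 bases in 10 exons, all of them fell in coding sequence, and none occurred in a transcript of another gene among 206694 searched. The primers are printed as the study lists them, each 5′ to 3′, the shRNA targets are in the sense of the mRNA, and capitals mark the 20 bases that the forward primer and the third target have in common.
FKBP10 forward primer: TACCACTACAACGGCACTTTtg
FKBP10 reverse primer: agaaccacatcgaagtagaggg
FKBP10 shRNA 1 target: ccacacctacaatacctatat
FKBP10 shRNA 2 target: gaagattatcatccctccatt
FKBP10 shRNA 3 target: cTACCACTACAACGGCACTTT
The third target, at chr17:41813232-41813252 in exon 1, therefore sits on the site of the forward primer, chr17:41813233-41813254. The reverse primer site is in exon 3 (chr17:41818113-41818134). The second target lies in exon 4 (chr17:41818481-41818501) and the first in exon 6 (chr17:41819542-41819562), both outside the amplified stretch. Of 9 annotated FKBP10 transcripts, the third target matched 5, the first 4 and the second 2, while the forward primer matched 5 and the reverse primer 4. The study used the 3 shRNAs as a pool, so none of the targets was a separate knockdown. With that pool the study reported a knockdown of FKBP10, checked by quantitative RT-PCR, and less migration of the brain-seeking line in a wound healing assay. Silenced cells were not analysed here.

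FKBP10 had the largest difference of the 10 genes. The study had already named FKBP10 among its 10 most up-regulated genes from these same libraries, so this ranking is no separate finding. By quantitative RT-PCR the study also found FKBP10 higher in the brain-seeking line. FKBP10 stood at 36.3, 37.87 and 35.43 FPKM in the 3 libraries of the brain-seeking line and at 2.31, 2.01 and 1.93 FPKM in those of MDA-MB-231. Every brain-seeking library was far above every MDA-MB-231 library, and the gap was many times the spread within either line. The ratio of the mean FPKM values was 17.5. On the log2(FPKM + 0.1) scale the 95% interval of the difference was 3.93 to 4.22, and limma, which fits every gene and shares the spread between them, gave an adjusted p of 1.9e-11 (Benjamini-Hochberg over 13465 genes, those averaging 0.1 FPKM or more). FKBP10 ranked 99 among all genes tested by the size of the increase, a set that reaches down to a mean of 0.1 FPKM. The study ranked only differentially expressed genes with FPKM values of at least 1, by its own fit. Its ranking and this one are therefore over unlike sets of genes. In bulk libraries such as these, fewer cells that express a gene and less of its RNA per cell cannot be told apart.

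SERPINH1, the other chaperone, was abundant in both lines and differed little. Its FPKM values were 84.08, 88.44 and 88.34 in the brain-seeking line and 78.88, 76.68 and 79.32 in MDA-MB-231, which did not overlap. The mean was 1.11-fold higher in the brain-seeking line (log2 fold change 0.15, 95% interval 0.088 to 0.213, limma adjusted p = 0.00062). The summed FPKM of both chaperones was 123 ± 2.98 (SD, n = 3) in the brain-seeking line and 80.4 ± 1.46 in MDA-MB-231, and most of that gap was FKBP10.

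**Figure D1:**
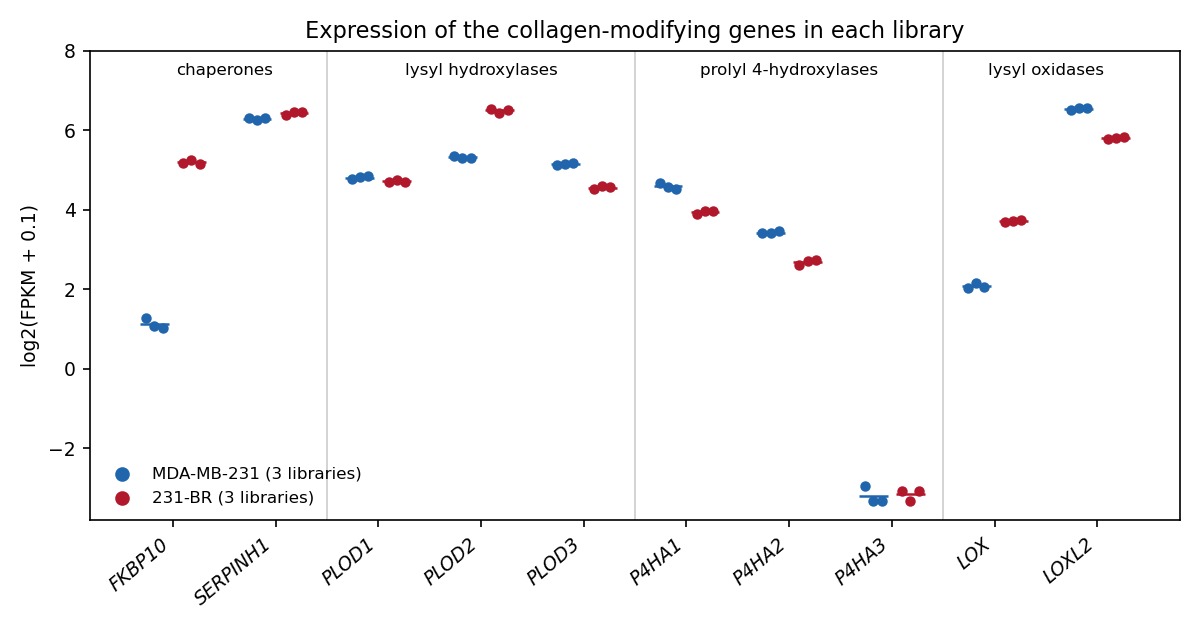
Expression of the 10 genes in each of the 6 libraries as log2(FPKM + 0.1), grouped by role, with blue points for MDA-MB-231, red points for the brain-seeking line and short lines for the means of 3 libraries. FKBP10, PLOD2 and LOX lie clearly higher in the brain-seeking line, P4HA1, P4HA2, PLOD3 and LOXL2 lie lower, and P4HA3 is at or near 0 in all 6.

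The lysyl hydroxylases moved in different directions. PLOD2, which hydroxylates the telopeptides at the ends of collagen chains, was the member that rose, with 92.71, 87.07 and 91.17 FPKM in the brain-seeking line against 40.8, 39.53 and 39.08 in MDA-MB-231. The lowest brain-seeking library was more than double the highest MDA-MB-231 library. The mean was 2.27-fold higher (log2 fold change 1.18 ± 0.031 SE, limma adjusted p = 3.8e-10). PLOD3, which also adds glucose and galactose to hydroxylysine, was lower in the brain-seeking line, at 22.9, 23.95 and 23.56 FPKM against 35, 35.6 and 36.03. Its groups stayed well apart, and the mean fell 1.51-fold (log2 fold change -0.60 ± 0.030 SE, limma adjusted p = 3.7e-08).

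PLOD1, which hydroxylates lysine within the helix, was almost level. It had 25.88, 26.66 and 25.95 FPKM in the brain-seeking line and 27.15, 28.11 and 28.7 in MDA-MB-231, a narrow gap without overlap. The log2 fold change was -0.10 (95% interval -0.17 to -0.026, limma adjusted p = 0.018). That call was lost when any of 4 libraries was left out: adjusted p was 0.056 without brain-seeking replicate 1, 0.057 without brain-seeking replicate 3, 0.052 without MDA-MB-231 replicate 2 and 0.053 without MDA-MB-231 replicate 3.

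The make-up of the lysyl hydroxylase family therefore differed between the lines. FPKM is per length, so shares of a family's summed FPKM can be set side by side. PLOD2 made up 64.5% ± 1.17 (SD, n = 3) of it in the brain-seeking line and 38.5% ± 1.01 in MDA-MB-231. PLOD3 held 16.8% ± 0.606 against 34.4% ± 0.363, and PLOD1 18.7% ± 0.580 against 27.1% ± 0.650. None of these shares overlapped between the lines, and the exact two-sided permutation p of each was 0.1, the smallest that 3 libraries against 3 can give. The family's summed FPKM was 1.35-fold higher in the brain-seeking line. The FPKM of FKBP10 relative to that of PLOD2, whose work it assists, was 0.405 ± 0.026 in the brain-seeking line and 0.052 ± 0.0038 in MDA-MB-231.

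Of the 3 prolyl 4-hydroxylase subunits, P4HA1 and P4HA2 were lower in the brain-seeking line. P4HA1, the main catalytic subunit in most cells, stood at 14.88, 15.49 and 15.45 FPKM in the brain-seeking line and at 25.41, 23.88 and 23.05 in MDA-MB-231. P4HA2, the second catalytic subunit, stood at 5.99, 6.45 and 6.59 against 10.54, 10.5 and 10.98. For both genes all brain-seeking libraries lay under all MDA-MB-231 libraries, with means 1.58-fold and 1.68-fold lower. The log2 fold changes were -0.65 (95% interval -0.75 to -0.56, limma adjusted p = 2.0e-07) for P4HA1 and -0.74 (-0.85 to -0.63, limma adjusted p = 3.1e-07) for P4HA2.

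P4HA3, the third subunit, was listed at 0.02, 0 and 0.02 FPKM in the brain-seeking line and at 0.03, 0 and 0 in MDA-MB-231, and was under the level needed to be tested. P4HA1 made up 70.6% ± 0.597 (SD, n = 3) of the summed FPKM of the 3 subunits in the brain-seeking line and 69.3% ± 1.45 in MDA-MB-231, and these shares overlapped (exact two-sided permutation p = 0.3). The P4HA genes are the alpha subunits, and the beta subunit is protein disulfide isomerase, P4HB, which also serves other proteins of the ER. P4HB was lower as well (log2 fold change -0.35), and the summed FPKM of the alpha subunits was 9.13% ± 0.145 of that of P4HB in the brain-seeking line and 11.6% ± 0.739 in MDA-MB-231.

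The lysyl oxidases, LOX and LOXL2, moved in opposite directions. LOX, which acts on fibrillar collagen and elastin, had 12.83, 13.05 and 13.35 FPKM in the brain-seeking line against 3.99, 4.4 and 4.06 in MDA-MB-231. LOXL2, which acts on type IV collagen of basement membranes, had 55.18, 56.35 and 56.73 against 90.65, 94.67 and 93.92. Neither gene's groups came near each other. LOX was 3.15-fold higher in the brain-seeking line (log2 fold change 1.63, 95% interval 1.52 to 1.75, limma adjusted p = 1.4e-09), and LOXL2 was 1.66-fold lower (log2 fold change -0.73 ± 0.026 SE, limma adjusted p = 3.7e-09).

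LOXL2 remained the more abundant of the pair in both lines. Over the 5 lysyl oxidases it held 69.9% ± 0.440 (SD, n = 3) of the summed FPKM in the brain-seeking line and 93.1% ± 0.069 in MDA-MB-231, while LOX held 16.3% ± 0.065 and 4.15% ± 0.159. LOXL1, which is tied to elastic fibres, held 8.94% in the brain-seeking line and 1.28% in MDA-MB-231. No LOX or LOXL1 share overlapped between the lines (exact two-sided permutation p = 0.1 for each, the smallest possible).

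**Figure D2:**
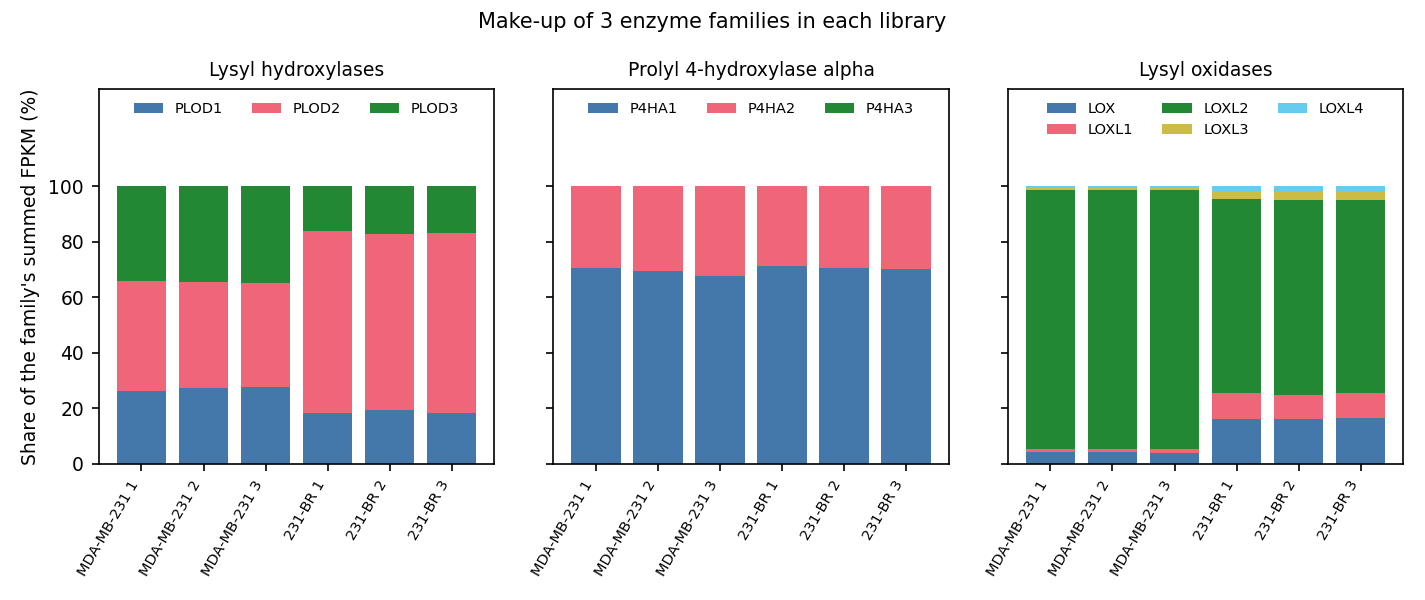
Stacked bars give the percent of a family's summed FPKM held by each lysyl hydroxylase, each prolyl 4-hydroxylase alpha subunit and each lysyl oxidase in each of the 6 libraries. PLOD2 holds 64.5% of the first family in the brain-seeking line against 38.5% in MDA-MB-231, the second family keeps P4HA1 near 70.6% and 69.3%, and LOX grows from 4.15% to 16.3% of the third.

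The members had no common direction. Of the 10 genes 9 were tested, and 4 were higher (FKBP10, SERPINH1, PLOD2, LOX) and 5 lower (PLOD1, PLOD3, P4HA1, P4HA2, LOXL2) in the brain-seeking line (adjusted p under 0.05). Of the 13465 genes tested, 44.4% were called higher and 32.9% lower by that rule, 77.3% in all, so passing it set no gene apart. With an absolute log2 fold change over 1 asked as well, FKBP10, PLOD2 and LOX were higher and 0 members were lower, where 10.9% of all genes tested were higher and 4.34% lower. All 9 had groups that did not overlap, where 44.9% of all genes tested were higher and 33.5% lower without overlap, 78.4% in all. Their median log2 fold change was -0.10, and that of all genes tested was 0.08.

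The split over all genes, 1467 higher and 584 lower past an absolute log2 fold change of 1, became 1078 and 921 after quantile normalization, which moved the median of all genes by -0.13. The 9 members kept their direction and their call under it. The order of levels changed with the line. In the brain-seeking line, PLOD2 and SERPINH1 came first and overlapped each other, followed by LOXL2, FKBP10, PLOD1, PLOD3, P4HA1, LOX, P4HA2 and P4HA3, with no other overlap between neighbours. In MDA-MB-231 the order was LOXL2, SERPINH1, PLOD2, PLOD3, PLOD1, P4HA1, P4HA2, LOX, FKBP10 and P4HA3, with none. FKBP10 thus stood above PLOD1 in the brain-seeking line and below all but P4HA3 in MDA-MB-231.

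Parts of some members share bases with another gene, and whether reads were assigned by strand is not given in the sources used here. LOX, on the minus strand at chr5:122063195-122078360, has 2.49% of its annotated exon bases in common with SRFBP1 on the opposite strand, which was at 12.1 to 13.2 FPKM in the brain-seeking line and 12.2 to 14.6 in MDA-MB-231. PLOD3 has 7.56% in common with ZNHIT1, also on the opposite strand. ZNHIT1 was at 18.5 to 20.6 FPKM in the brain-seeking line and 21.6 to 24.8 in MDA-MB-231, lower without overlap, as PLOD3 was. LOXL2 has 2.1% in common with ENTPD4 on the same strand, which was at 13.6 to 14.7 FPKM in the brain-seeking line and 13.5 to 14.4 in MDA-MB-231. P4HA3 has 4.14% in common with PPME1 on the opposite strand. PPME1 was at 26.3 to 27.4 FPKM in the brain-seeking line and 24.6 to 26.4 in MDA-MB-231, and P4HA3 at or under 0.03 in every library. Reads of genes on the same strand cannot be told apart by strand, and those on opposite strands only if strand was used. Their part in the values was not tested.

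Other genes of collagen modification gave a mixed picture. Of 14 listed, all were tested, and 8 were higher, 4 lower and 2 did not pass, with a median log2 fold change of 0.38. Over all genes tested, 44.4% were called higher and 32.9% lower. Past a log2 fold change of 1 in size, 5 of the list were higher and 0 lower, beside 10.9% and 4.34% of all genes tested. The 5 became 3 with a pseudocount of 1, where 720 of all genes were higher in place of 1467. Some of the 5 were low in MDA-MB-231, such as LOXL4 at a mean of 0.363 FPKM. COLGALT2, a galactosyltransferase that puts sugar on hydroxylysine, had the largest increase, from 0.56, 0.57 and 0.6 FPKM in MDA-MB-231 to 3.76, 3.93 and 3.98 in the brain-seeking line (log2 fold change 2.56). LOXL1 followed (log2 fold change 2.40), at 7.26, 6.76 and 7.49 FPKM against 1.33, 1.16 and 1.35.

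P3H4 (also called SC65), a partner of the lysyl hydroxylase complex of the ER, was at 8.84, 8.54 and 9.2 FPKM in the brain-seeking line and at 1.58, 2.16 and 2.03 in MDA-MB-231, without overlap (log2 fold change 2.16 ± 0.102 SE, limma adjusted p = 2.5e-08). The largest decreases were those of PPIB (log2 fold change -0.89), PXDN (-0.75) and CRTAP (-0.43). PPIB is cyclophilin B, a prolyl isomerase that joins CRTAP in the prolyl 3-hydroxylase complex, and PXDN is a peroxidase that makes sulfilimine cross-links in type IV collagen. PPIB remained abundant, with 202 to 213 FPKM in the brain-seeking line and 382 to 390 in MDA-MB-231. FKBP14, a prolyl isomerase that like FKBP10 serves collagen, had a log2 fold change of -0.06 (limma adjusted p = 0.40).

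Of 15 genes for procollagen processing and export, 11 were tested, with 6 higher, 4 lower and 1 that did not pass, and a median log2 fold change of 0.24. These counts lie near the 44.4% higher and 32.9% lower over all genes tested, so they are no result about the list. PCOLCE2, an enhancer of the protease that trims the C-propeptide, had the largest increase (log2 fold change 0.96), followed by ADAMTS3, a protease of N-propeptides (0.86), and MIA3 (TANGO1), the receptor that loads collagen for export (0.79). CREB3L1, an ER-bound transcription factor of the secretory pathway, fell past a log2 fold change of 1 in size, to 4.68, 4.65 and 4.53 FPKM in the brain-seeking line from 12.35, 11.37 and 11.99 in MDA-MB-231 (log2 fold change -1.35). BMP1, the C-propeptide protease itself (-0.52), and KDELR2, which returns chaperones to the ER (-0.40), were lower too.

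**Figure D3:**
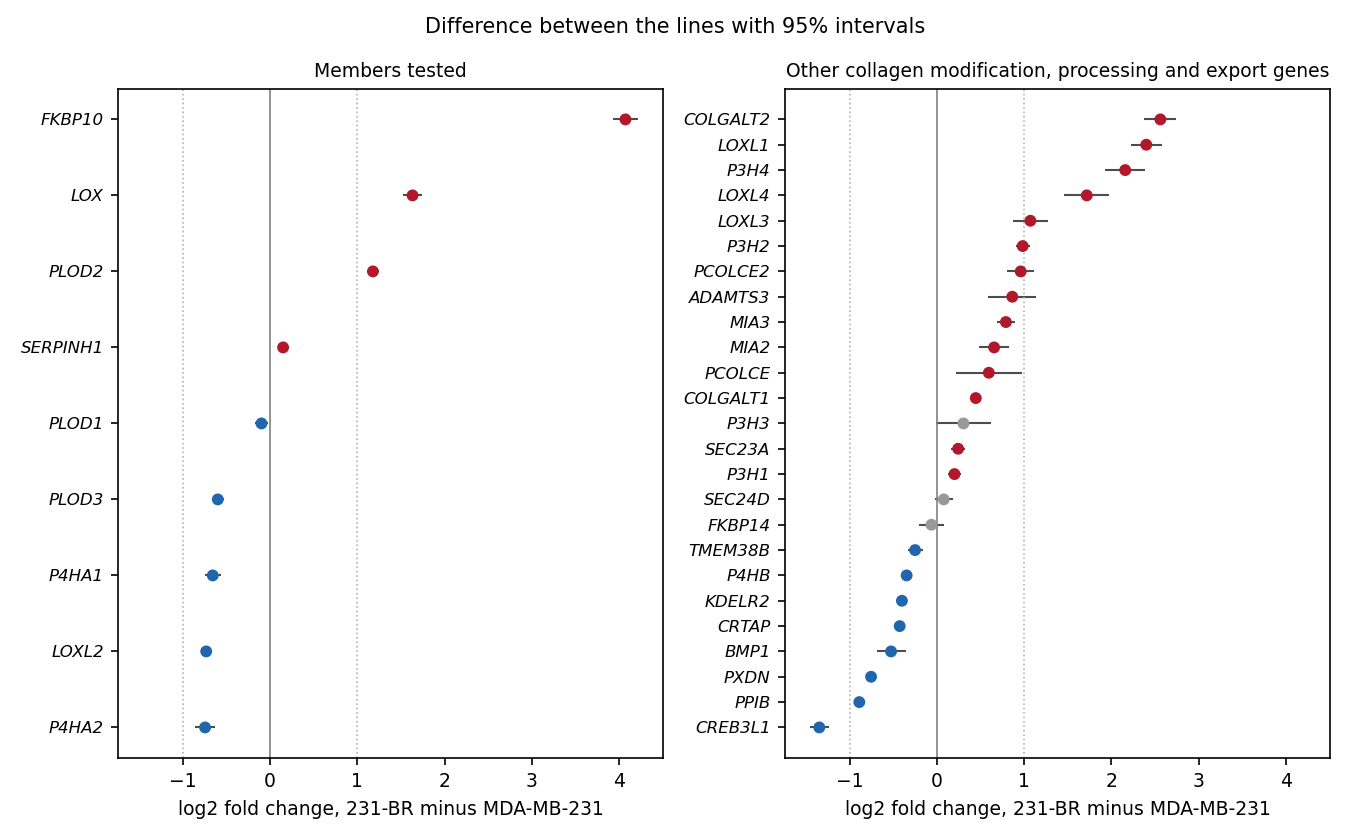
Log2 fold changes of the brain-seeking line over MDA-MB-231 on the log2(FPKM + 0.1) scale, with 95% intervals from limma, for the 9 members tested (left) and for the other genes of collagen modification, processing and export (right). Red points were higher and blue points lower at an adjusted p under 0.05, grey points did not pass, and dotted lines mark a log2 fold change of 1 in size. FKBP10 at 4.07 lies beyond every other gene shown, the next being COLGALT2 at 2.56.

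Within its own protein family FKBP10 had the largest difference, a ranking that its choice by the study from the same libraries had largely set in advance. Of 17 other FK506-binding protein genes listed, 15 were in the matrix and 14 were tested: 4 were higher, 3 lower and 7 did not pass, with 7 lower after median-of-ratios scaling and 9 lower after quantile normalization. Over all genes tested, 77.3% were called in either direction, 44.4% higher and 32.9% lower. The largest increase was that of FKBP7, another isomerase of the ER, at 5.16, 5.02 and 5.01 FPKM against 2.2, 2.29 and 2.23 (log2 fold change 1.14). FKBP8 (0.89) and FKBP3 (0.68) followed, and FKBP11 (-0.62), FKBP4 (-0.57) and FKBP2 (-0.46) had the largest decreases. FKBP9, the family member most like FKBP10 in its repeated isomerase domains, had a log2 fold change of -0.06 and did not pass.

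General chaperones of the ER were read beside FKBP10. Of 10 tested, CALR (calreticulin) was higher (log2 fold change 0.31) and the other 9 were lower, with a median of -0.70, where 32.9% of all genes tested were lower and their median was 0.08. The largest decreases were those of SDF2L1 (-1.41), HSPA5 (BiP), the main chaperone of the ER (-1.22), and PDIA4 (-0.84). HSPA5 stood at 165.18, 167.96 and 165.2 FPKM in the brain-seeking line and at 394.1, 378.05 and 386.1 in MDA-MB-231. FKBP10 was thus higher in the line in which 9 of the 10 general chaperones were lower. SERPINH1, at a log2 fold change of 0.15, was close to the median of all genes tested.

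Of the collagen chains on which these enzymes act, those of types I and III were low in both lines. COL1A2 and COL3A1 were at or under 0.02 FPKM in every library, and COL1A1 was at 0.55, 0.5 and 0.5 FPKM in the brain-seeking line and 0.88, 0.98 and 0.93 in MDA-MB-231. Of 12 chains in the matrix 9 were tested, with 4 higher and 5 lower, beside 44.4% and 32.9% of all genes tested. The fourth higher chain, COL5A2, was at 0.58, 0.64 and 0.65 FPKM against 0.55, 0.4 and 0.47 (limma adjusted p = 0.044). Its call was lost in 9 of 13 other settings, among them the omission of any brain-seeking library or of MDA-MB-231 replicate 2 or 3 (adjusted p 0.054 to 0.15), the replicate block (0.065), median-of-ratios scaling (0.078) and quantile normalization (0.50), where its log2 fold change was -0.10 in place of 0.34. The type VI chains COL6A2 and COL6A1 rose, to 22.03, 21.4 and 21.85 FPKM from 4.61, 4.93 and 4.48 for COL6A2 (4.66-fold by the means), and with a log2 fold change of 1.18 for COL6A1. COL6A3, the third chain of classical type VI collagen, had 0.11, 0.1 and 0.08 FPKM in the brain-seeking line against 1.38, 1.39 and 1.38 (log2 fold change -2.92). COL5A1, a type V chain, was lower too, with means of 3.63 against 9.54 FPKM (log2 fold change -1.37, limma adjusted p = 7.8e-09). Past a log2 fold change of 1 in size, 2 chains were higher and 4 lower, beside 10.9% and 4.34% of all genes tested.

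The basement membrane chains were lower in the brain-seeking line. COL4A2 was at 9.48, 9.69 and 9.57 FPKM against 47.39, 48.94 and 47.69 (log2 fold change -2.31), and COL4A1 at 4.7, 4.22 and 4.42 against 16.65, 16.2 and 16.31 (log2 fold change -1.86). LOXL2 and PXDN, which cross-link type IV collagen, were lower beside them. COL12A1, a chain that lies on the surface of collagen fibrils, was higher (log2 fold change 0.67). The most abundant chain of the list was COL6A1 in the brain-seeking line, at 41.9 to 42.4 FPKM, and COL4A2 in MDA-MB-231.

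PLOD2, LOX, P4HA1 and P4HA2 are known targets of the hypoxia-inducible factors, so other hypoxia-inducible genes were read beside them. Of 20 listed 19 were tested, and 8 were higher, 9 lower and 2 did not pass, with a median log2 fold change of -0.03. Over all genes tested 44.4% were higher and 32.9% lower, and nothing particular to the list is read from its counts. SLC2A1, a glucose transporter (0.63), HK2, a hexokinase (0.56), and ADM, adrenomedullin (0.53), had the largest increases. VEGFA, the vascular growth factor, had the largest decrease, with 12.45, 12.05 and 13.58 FPKM in the brain-seeking line against 54.89, 53.21 and 55.2 (log2 fold change -2.09), before DDIT4 (-1.13) and PDK1 (-0.80).

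The core of the site bound by those factors, ACGTG, was looked for in the 250 bases before the RefSeq start (GRCh38.p14) of the 7 members that the promoter table holds, on both strands. LOX had 4 matches, PLOD2 had 2, P4HA1 had 1, and SERPINH1, PLOD1, PLOD3 and P4HA2 had 0. Of all 27305 windows of that length 18.6% held at least 1 match, and 1.62% held 3 or more. These letters are also part of the E-box CACGTG, and a match is only a run of letters. The stretches of the LOX and PLOD2 windows outside annotated exons are shown because these genes rose and hold the most matches. They are on the minus strand, at chr5:122078361-122078509 for LOX and chr3:146161185-146161434 for PLOD2, with ACGTG or its reverse complement in capitals.
LOX: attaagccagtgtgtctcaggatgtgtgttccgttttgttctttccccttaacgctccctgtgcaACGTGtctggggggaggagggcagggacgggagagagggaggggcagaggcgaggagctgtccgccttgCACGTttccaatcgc
PLOD2: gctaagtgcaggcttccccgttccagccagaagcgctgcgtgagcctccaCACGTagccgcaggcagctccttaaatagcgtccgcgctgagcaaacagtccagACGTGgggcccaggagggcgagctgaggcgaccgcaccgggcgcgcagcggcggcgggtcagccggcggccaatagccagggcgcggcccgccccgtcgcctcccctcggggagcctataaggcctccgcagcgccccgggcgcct
The other LOX matches lie in bases annotated as exon and are not printed.

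The neighbours of FKBP10 on chromosome 17 were read in the same way. P3H4 starts only 75 bases from FKBP10 on the opposite strand, at chr17:41801947-41812604, so the start sites of both genes face away from each other, and both were higher in the brain-seeking line. The next tested genes on either side, JUP (0.12 to 0.38 FPKM over the 6 libraries), NT5C3B and KLHL11, were higher as well, with log2 fold changes of 0.63, 0.73 and 0.42. Among the 40 nearest genes that averaged 1 FPKM or more, the median log2 fold change was 0.31, and 5 were higher and 1 lower past a log2 fold change of 1 in size. Over all genes tested the median was 0.08, with 10.9% higher and 4.34% lower past that size. Those genes reach down to a mean of 0.1 FPKM. Over the 11124 genes averaging 1 FPKM or more, fitted alone, the median was 0.06, with 949 higher and 345 lower past that size. The count of 5 in 40 is not far from these shares and is no result about this place in the genome. KRT19, a keratin gene 284 kb before FKBP10, had a larger difference than FKBP10 itself, at 4.93. Around the other 8 members tested, the same median over 40 neighbours ran from -0.21 (P4HA2) to 0.39 (SERPINH1, with 6 neighbours higher past that size while SERPINH1 itself was at 0.15), and was 0.32 for PLOD2, 0.20 for PLOD1 and 0.06 for LOX.

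**Figure D4:**
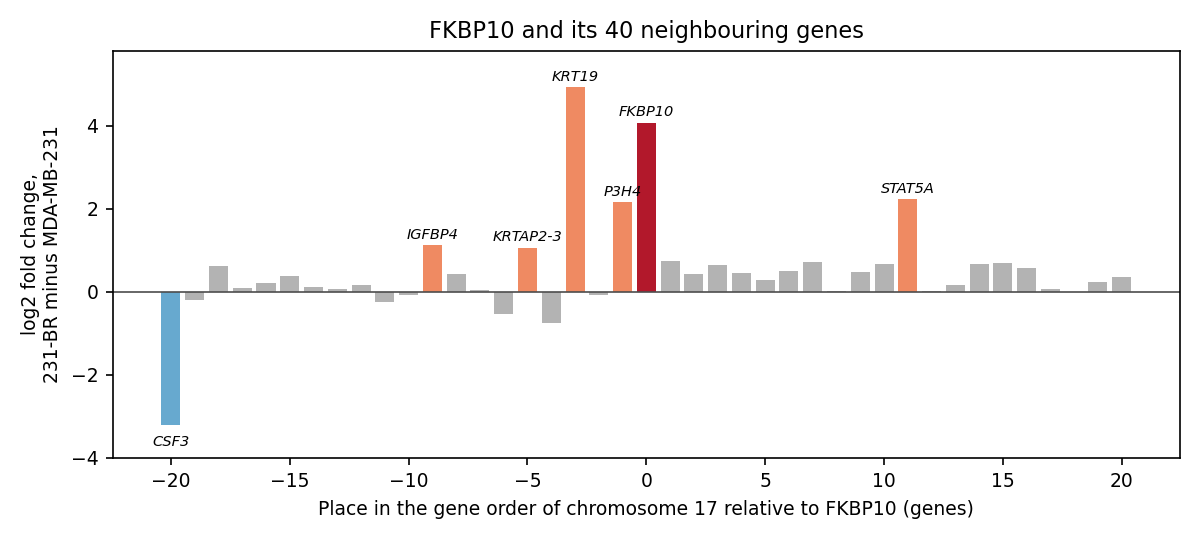
Log2 fold change of the brain-seeking line over MDA-MB-231 for FKBP10 (dark red, at place 0) and its 40 nearest genes averaging 1 FPKM or more, in their order along chromosome 17. Orange bars were higher and the blue bar lower at an adjusted p under 0.05 and a log2 fold change over 1 in size, and grey bars did not pass. KRT19 and FKBP10 stand above the rest, with P3H4 beside FKBP10 and a median of 0.31 over the 40.

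The genes whose 6 values lay nearest to those of FKBP10 were sought by Euclidean distance on the log2(FPKM + 0.1) scale over the 6 libraries. They were KCNAB2 (distance 0.715), a potassium channel beta subunit, NOV (1.05), a matricellular protein, UBE2L6 (1.06), a conjugating enzyme of ISG15, SOCS2 (1.26), an inhibitor of cytokine signalling, and CRADD (1.53), a death domain adaptor. KCNAB2 had 44.12, 43.47 and 45.02 FPKM in the brain-seeking line and 2.34, 2.11 and 2.81 in MDA-MB-231, nearly the levels of FKBP10. No collagen gene was among the 5.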

How the data were processed

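RNA-seq libraries of MDA-MB-231 cells and of their brain-seeking variant (3 each) were compared. The authors deposited FPKM values per gene, with 2 decimals, from poly(A) libraries sequenced on a BGISEQ-500. The submitters' processing notes name HISAT2 2.0.4, Bowtie2 2.2.5 and GRCh38.p12, and the program that gave the FPKM values is not given in the sources used here. The 6 sample files held the same values as the matrix. FPKM are not counts, so limma 3.58.1 (R 4.3.3; linear model, empirical Bayes with trend) was run on log2(FPKM + 0.1) for genes averaging 0.1 FPKM or more, adjusted by Benjamini-Hochberg over all genes tested. A fold change on this scale understates that of genes near 0.1 FPKM. Depth is unknown, so no counting interval is given. Samples were grouped by title, and the line names in the cell line field, which differ between replicates, were not used.

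The members and lists were chosen with earlier results of these data known. From each list the 3 genes with the largest increase and the 3 with the largest decrease were named, among those with an adjusted p under 0.05 that averaged 1 FPKM or more in 1 of the lines, with the 5 genes nearest FKBP10 and 2 tested neighbours on each side; other genes named were chosen after their values were seen. On data simulated for this comparison over 13404 genes, 181 of 200 changed genes were recovered and 8 of 13204 unchanged genes were called. The simulation drew independent normal noise with each gene's own spread and changed only those 200 genes. In the data 77.3% of the genes tested were called. It therefore checks that the fit runs as meant, and cannot show how well the p-values hold for these libraries. Gene positions and transcripts came from GENCODE (GRCh38), promoter windows and gene order from RefSeq (GRCh38.p14), which placed 13350 of the genes tested. Primer and shRNA sequences came from the study's supplementary tables. Other pseudocounts, filters, scalings, a fit without trend, a replicate block and the omission of each library were tried.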

Additional observations from a re-analysis of the deposited data

How the results depend on the processing

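Of 560 values recomputed under other settings, 544 kept their direction, call or size. A count was taken as kept if it stayed within a factor of 1.5 of its main value. Some counts taken as kept did change, such as collagen chains called higher, from 4 to 3 in some settings. All 9 members kept their direction under every setting run. Over the omissions of 1 library, PLOD1 ranged from -0.12 to -0.078 (log2 fold change) and its adjusted p passed 0.05 in 4 of them, FKBP10 from 4.02 to 4.15, and the count of processing and export genes higher past a log2 fold change of 1 from 0 to 1 (1 without MDA-MB-231 replicate 2). A pseudocount of 1 gave FKBP10 3.61, took the other FK506-binding genes higher past that size from 1 to 0 and the other modifying genes from 5 to 3, and the counts over all genes from 1467 higher and 584 lower to 720 and 277. Quantile normalization also gave 0 such FK506-binding genes, 9 lower by adjusted p in place of 3 (7 after median-of-ratios scaling), and shares of 16.1% and 4.54% for LOX, 71.0% and 92.2% for LOXL2 (brain-seeking line, then MDA-MB-231) and 71.4% for P4HA1 in the brain-seeking line. A mean FPKM of at least 1 left 3 collagen chains lower in place of 5, since fewer genes were tested, and 949 higher and 345 lower genes in all. For the other changes the cause was not tested. The same-numbered replicates of the lines did not deviate together (correlations of 0.087, -0.040 and -0.106), so the numbers do not pair them. With a replicate block FKBP10 remained at 4.07, 4 members were higher and 5 lower, and 1468 genes were higher and 585 lower past that size, and it changed no call on the members, while the collagen chain COL5A2 lost its call (adjusted p = 0.065). Without counts, levels near 0 such as those of P4HA3 cannot be ranked.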
